A study of Homo sapiens with 16 samples.

Results

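*PTGES* encodes microsomal prostaglandin E synthase 1, the enzyme that converts prostaglandin H2 into prostaglandin E2. It was examined with 8 genes that act before and after it, which makes 9 of the 25369 genes in the count table. These are *PLA2G4A* (arachidonate release), *PTGS1* and *PTGS2* (the cyclooxygenases), *PTGES*, *PTGES2* and *PTGES3* (prostaglandin E synthases), *PTGER2* and *PTGER4* (the EP2 and EP4 receptors) and *HPGD* (prostaglandin breakdown). They were chosen by symbol, because in these same libraries *PTGES* was higher under GSK2830371 in K1 cells and had a negative interaction of the drugs in TPC1 cells. Those contrasts are therefore described below without a test.

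The libraries come from TPC1 and K1, established human papillary thyroid carcinoma lines with wild type p53. Each line was treated for 24 h with vehicle (0.2% DMSO), 10 µM nutlin (nutlin-3a, which blocks MDM2, the ubiquitin ligase that holds p53 down), 25 µM GSK2830371 (which blocks PPM1D, a phosphatase that restrains p53), or both drugs, called the combination here. Every group holds 2 libraries of stranded, poly(A)-enriched RNA-seq, so there are 8 per line and 16 in all. TPC1 was grown in RPMI and K1 in DMEM, so the line and the medium cannot be told apart, and each line is a single cell line.

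Prostaglandin E2 is made in steps. Cytosolic phospholipase A2 frees arachidonic acid from membranes, a cyclooxygenase turns it into prostaglandin H2, and a terminal synthase makes prostaglandin E2 from that. The product leaves the cell and acts on EP receptors, of which EP2 and EP4 raise cyclic AMP, and 15-hydroxyprostaglandin dehydrogenase inactivates it. *PTGS2* and *PTGES* are known as the inducible pair of the pathway and *PTGS1*, *PTGES2* and *PTGES3* as its more constitutive members, and prostaglandin E2 made through *PTGS2* is a common feature of epithelial tumours, thyroid carcinoma among them.

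The sequence just before the start site is shown for *PTGES*, for its usual partner *PTGS2*, and for *PTGER2*, whose counts fell furthest among the members. Each run holds the 250 bases upstream of the annotated start in RefSeq (GRCh38.p14), written 5′ to 3′ on the strand of the gene, and capitals mark every match to the motifs searched. *PTGES* lies at chr9:129753043-129753292 on the minus strand, *PTGS2* at chr1:186680424-186680673 on the minus strand, and *PTGER2* at chr14:52314062-52314311 on the plus strand.
PTGES: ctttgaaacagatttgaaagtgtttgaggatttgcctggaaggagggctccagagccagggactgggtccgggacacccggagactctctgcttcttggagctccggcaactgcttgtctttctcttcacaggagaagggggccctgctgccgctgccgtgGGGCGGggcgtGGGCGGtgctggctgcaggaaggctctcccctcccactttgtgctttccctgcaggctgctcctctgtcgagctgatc
PTGS2: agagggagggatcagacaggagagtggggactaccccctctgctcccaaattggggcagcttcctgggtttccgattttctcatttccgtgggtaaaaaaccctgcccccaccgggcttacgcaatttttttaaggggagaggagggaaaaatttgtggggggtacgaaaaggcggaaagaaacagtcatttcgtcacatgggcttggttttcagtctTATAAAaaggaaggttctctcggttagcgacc
PTGER2: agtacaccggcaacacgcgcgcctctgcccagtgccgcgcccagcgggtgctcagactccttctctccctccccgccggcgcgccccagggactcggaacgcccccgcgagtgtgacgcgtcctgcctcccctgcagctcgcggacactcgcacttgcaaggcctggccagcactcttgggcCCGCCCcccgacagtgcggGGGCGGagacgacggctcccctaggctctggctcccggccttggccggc

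Both strands of these windows were searched for 6 motifs: GGGCGG (the GC box hexamer), the TATA box hexamer TATAAA, the cyclic AMP element TGACGTCA, the C/EBP-ATF type element TGATGNAA, the NF-kappaB type element GGGANTTCC and the p53 half-site. *PTGES* held 2 copies of GGGCGG, the nearer ending 73 bases before the start. *PTGER2* also held 2, one on each strand, at 68 to 63 and at 49 to 44 bases before the start. *PTGS2* held 1 TATAAA, 32 to 27 bases before the start, and no GGGCGG. In windows of the same length over 35116 RefSeq promoters, GGGCGG was found in 42.6% and TATAAA in 10.7%. The other 4 motifs had no match in these 3 windows, and over all promoters they were found in 3.14% (TGATGNAA), 1.65% (TGACGTCA), 1.59% (GGGANTTCC) and 5.57% (the p53 half-site). All 9 genes had a window in the table. On GRCh37, the build of the counts, the annotated genes span chr9:132500610-132515321 (*PTGES*), chr1:186640923-186650054 (*PTGS2*) and chr14:52781023-52795316 (*PTGER2*), and the counts cover their exons.

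The TPC1 libraries held 30789887 to 76648552 counts each and those of K1 28888686 to 37161241, and the TPC1 libraries numbered 3 were the deeper ones (62853375 or more). As a check of the treatment labels, *CDKN1A*, a target of p53, had a mean of 138 CPM (the usual count relative to library size, scaled by TMM) under DMSO and 6908 under nutlin in TPC1, and of 113 and 1011 in K1. The thyroid factor *PAX8* was at 298 to 470.0 CPM in TPC1 and at 742 to 838 in K1, and *FOXE1* was at 22.3 to 38.1 CPM over both lines. *TSHR* had no count in any library, *NKX2-1* none in TPC1 and at most 10 in K1, and *SLC5A5* at most 21. *TG* was at 0.158 and 0.308 CPM under DMSO and 5.17 and 3.75 under the combination in TPC1, and at 2.75 to 6.04 in K1. Of the 7 thyroid markers 4 were tested in TPC1 and 5 in K1. Under nutlin 2 were called as higher in K1, beside 3.84% of all genes. In TPC1 *SLC5A5* passed the filter only through the libraries with nutlin, where it was higher. The number called in TPC1 is therefore not given as a result. The summed level of the thyroid markers in TPC1 was 342 to 354 CPM under DMSO and 498 to 499 under nutlin, most of it *PAX8*. *KRT8* and *KRT18* were abundant while *CDH1* and *EPCAM* stayed under 1 CPM. Of the 6 blood cell markers, *CD3E* had no count and *PTPRC* at most 2, *CD14* was at 2.24 to 4.55 CPM in K1, and *CD68*, also made by other cells, was at 33.3 to 76.2 CPM over both lines. Their summed level in TPC1 was 33.7 to 37.5 CPM under DMSO and 68.9 to 75.1 under nutlin, most of it *CD68*. The summed level of the 5 fibroblast markers moved with the treatment in TPC1, from 8.40 to 8.77 CPM under DMSO to 2.16 to 3.34 under the combination, and the 6 epithelial markers from 776 to 931 CPM to 432 to 511; their part in the results below was not tested.

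*PTGES* was low in TPC1. Its libraries lay above DMSO with each drug alone and below DMSO with both. In TPC1 its libraries held 3.88 and 4.24 CPM under DMSO, 5.66 and 5.86 under nutlin, 6.89 and 6.76 under GSK2830371, and 1.24 and 2.02 under the combination. The 4 pairs of libraries did not overlap, and the order from high to low was GSK2830371, nutlin, DMSO, combination. The lowest libraries still held 44 and 119 *PTGES* counts.

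As log2 fold changes against DMSO, *PTGES* in TPC1 stood at 0.47 ± 0.176 (SE) under nutlin, 0.74 ± 0.173 under GSK2830371 and -1.31 ± 0.195 under the combination. The log2 difference of the combination from nutlin alone was -1.78 ± 0.193, and that from GSK2830371 alone was -2.05 ± 0.191. The interaction, the part of the combined effect that the sum of both single effects leaves over, was -2.52 ± 0.260 on the log2 scale. These 6 values describe the pattern for which the gene was picked and carry no test. When single libraries were left out, the interaction lay between -2.95 and -2.26.

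In K1 *PTGES* was an abundant transcript, and it was highest under GSK2830371 alone. Its libraries held 64.7 and 54.6 CPM under DMSO, 66.5 and 94.7 under nutlin, 116 and 145 under GSK2830371, and 88.0 and 107 under the combination. Both GSK2830371 libraries lay above all others in K1, both DMSO libraries lay below all others, and the nutlin and combination libraries overlapped. The nutlin pair was the widest relative to its mean.

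The log2 fold change of *PTGES* under GSK2830371 in K1, which the choice of the gene used, was 1.13 ± 0.147, between 0.96 and 1.28 when single libraries were left out. Of all 15900 genes tested in K1, 2.23% were called in that contrast, 0.736% as higher. A call here means a fold change over 1.5 and an adjusted p under 0.05 (quasi-likelihood test of edgeR, Benjamini and Hochberg's adjustment over all genes tested). Nutlin gave 0.44 ± 0.148 (1.35-fold), 0.67 without K1 nutlin replicate 1 and 0.16 without replicate 2. The combination against DMSO gave 0.71 ± 0.147 (1.63-fold), and 0.56 without K1 combination replicate 2. Both values rest on the DMSO libraries of the contrast that chose the gene and are descriptions. The test that shares no library with it, the combination against nutlin, gave 0.27 ± 0.146 (adjusted p = 0.26, not called), and 0.04 to 0.55 with single libraries left out.

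Adding GSK2830371 to nutlin went with opposite values of *PTGES* in the lines, -1.78 in TPC1 and 0.27 in K1 on the log2 scale. The difference between the lines was 2.04 ± 0.282, given as a description because it contains the libraries of the TPC1 interaction. In K1 the combination lay 0.42 below GSK2830371 alone (log2 difference -0.42 ± 0.144) and the interaction was -0.86 ± 0.206, both also untested.

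**Figure D1:**
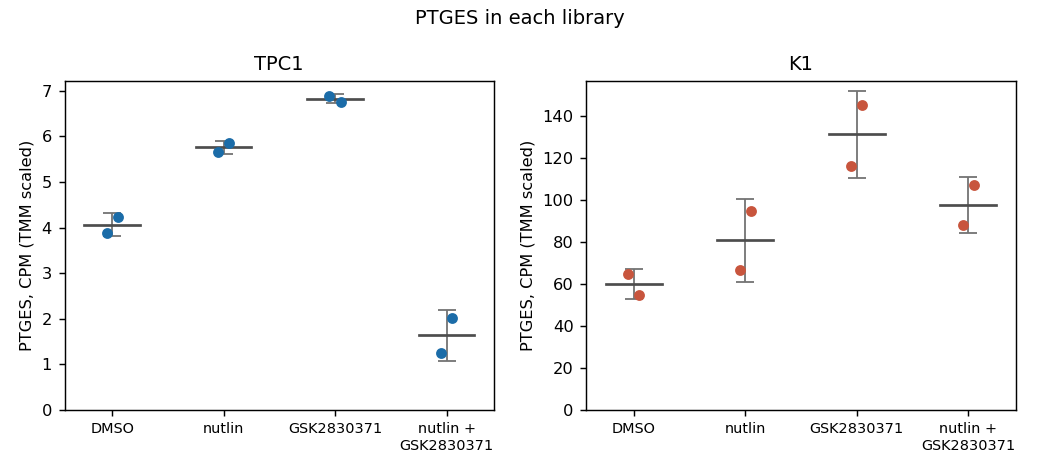
*PTGES* in CPM (vertical axis, from 0, a separate scale for each line) for the 2 libraries of each treatment; dots are libraries, horizontal bars are means and whiskers are SD. In TPC1 the combination libraries lie at 1.24 and 2.02 CPM, under all others, and in K1 the GSK2830371 libraries lie at 116 and 145, above all others.

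For the step before *PTGES*, the more abundant cyclooxygenase transcript was *PTGS1* in TPC1 and *PTGS2* in K1. *PTGS1* held 12.2 and 13.3 CPM in the TPC1 DMSO libraries, and 0.0564 and 0.293 CPM, from 2 and 11 counts, in those of K1. *PTGS2* was the reverse, at 0.608 and 0.280 CPM in TPC1 and at 6.57 and 5.52 in K1. The groups did not overlap for either gene. Per kilobase of transcript, *PTGS2* made up 3.77% ± 2.08 (SD, n = 2) of the *PTGS1* and *PTGS2* counts in TPC1 under DMSO and 97.3% ± 2.68 in K1.

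Between the DMSO groups, 46.2% of the 16738 genes tested over both lines were called, 25.0% as higher in K1 and 21.2% as lower. Of the 7 members tested there (*PTGES* was left out and *HPGD* did not pass the filter), 6 were called. *PTGS2* and *PLA2G4A* were higher in K1, by 3.90 ± 0.280 (adjusted p = 2.5e-09) and 2.21 ± 0.171 (adjusted p = 6.4e-09). *PTGS1* was lower in K1 by a log2 difference of -6.14 ± 0.294 (adjusted p = 1.4e-11), which rests on the few K1 counts above. *PTGES2* was lower at -1.32 ± 0.0826, *PTGES3* at -0.94 ± 0.0986 and *PTGER4* at -0.68 ± 0.210, the last with an adjusted p of 0.0091 that rose to 0.062 without K1 DMSO replicate 1. *PTGER2* was not called, at -0.23 ± 0.244 (adjusted p = 0.41). *PTGES* itself was 14.6-fold higher in K1 (log2 3.87 ± 0.189), as a description.

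Set side by side per kilobase of transcript, *PTGES* stood far below the other 2 prostaglandin E synthases in TPC1 and level with *PTGES2* in K1. In TPC1 DMSO libraries *PTGES3*, which is also the HSP90 cochaperone p23, stood at 303 ± 38.0 CPM per kb (SD, n = 2), *PTGES2* at 85.9 ± 7.63 and *PTGES* at 2.32 ± 0.145. In K1 the values were 158 ± 1.74, 34.5 ± 0.435 and 34.1 ± 4.05, so *PTGES* and *PTGES2* did not differ beyond their spread there. The share of *PTGES* among the 3 in K1 was 15% ± 1.66 under DMSO, 22.3% ± 4.27 under nutlin, 27.6% ± 2.95 under GSK2830371 and 25.3% ± 3.88 under the combination. In TPC1 it was 0.595% ± 0.0327, 1.55% ± 0.0123, 1.09% ± 0.104 and 0.440% ± 0.107 in the same order. The shares include the *PTGES* values that chose the gene and are given without a test.

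**Figure D2:**
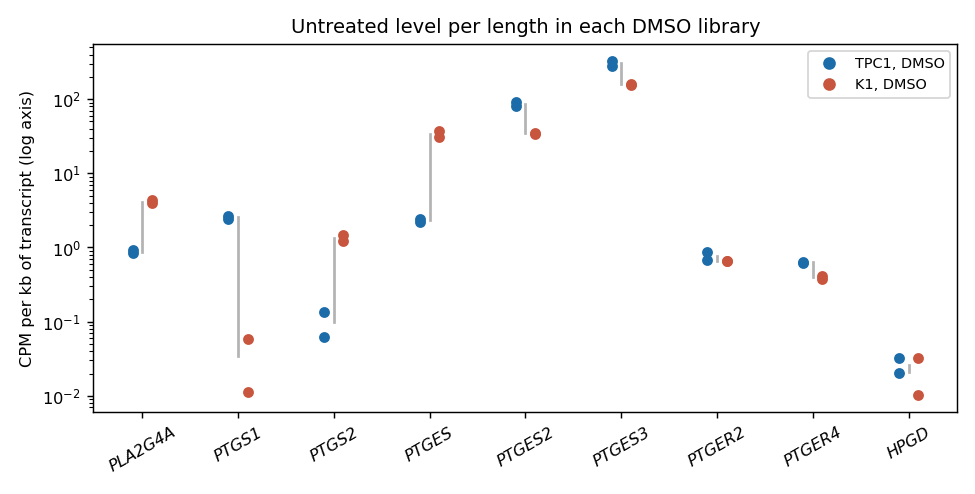
Level of the 9 genes in the DMSO libraries, in CPM per kilobase of the annotated transcript (log axis); each dot is a library, blue for TPC1 and red for K1, and grey lines join the means. *PTGES*, *PTGS2* and *PLA2G4A* lie higher in K1, and *PTGS1*, *PTGES2* and *PTGES3* higher in TPC1.

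In TPC1 nutlin lowered 3 of the 7 members tested, *PTGS1*, *PTGES3* and *PTGER2*, and raised none, where 18.0% of the 15273 genes tested were called as lower and 35.5% were called in either direction. The median log2 fold change of the 7 was -0.58, and that of all genes was -0.00. *PTGS1* went from 12.2 and 13.3 CPM under DMSO to 4.92 and 4.10 under nutlin. *PTGES3* went from 524 and 626 CPM to 239 and 257. Both nutlin libraries lay under both DMSO libraries for each gene.

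*PTGER2*, which encodes the EP2 receptor, had 82 and 119 counts in the TPC1 DMSO libraries and 11 and 13 under nutlin, that is 2.17 and 1.67 CPM against 0.371 and 0.209. The nutlin libraries lay under all DMSO libraries although 1 of the nutlin libraries was among the deeper ones. Its log2 fold change was -2.85 ± 0.395 (adjusted p = 2.4e-04). That of *PTGS1* was -1.55 ± 0.135 (adjusted p = 1.2e-05) and that of *PTGES3* was -1.25 ± 0.108 (adjusted p = 1.2e-05). *PTGES3* has near-identical processed pseudogenes elsewhere in the genome, and how reads were split among them was not examined.

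GSK2830371 alone left the members of TPC1 uncalled: 0 of 7 passed by edgeR's quasi-likelihood test and 0 by DESeq2, against 1.40% of all genes. At an unadjusted p under 0.05 there was 1, *PTGS1*, with 8.47 and 9.59 CPM and a log2 fold change of -0.49 ± 0.126 (adjusted p = 0.071).

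The combination lowered 5 of the 7 members in TPC1 and raised none, where 21.7% of all genes were called as lower and 44.2% in either direction. The median log2 fold change of the 7 was -1.27, against 0.00 over all genes. The 5 were *PTGER2*, *PTGER4*, *PTGS1*, *PTGES3* and *PLA2G4A*. *PTGES* (above) stood at -1.31 without a test. *PTGES2* and *PTGS2* were not called.

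*PTGER2* was down to 1 and 7 counts in the combination libraries of TPC1, 0.0281 and 0.119 CPM. This was the lowest pair of any treatment in the line. The log2 fold change against DMSO was -4.49 ± 0.475 (adjusted p = 3.1e-05), and -5.97 without TPC1 combination replicate 3 or -4.00 without replicate 1. Against GSK2830371, under which the libraries held 1.31 and 1.87 CPM, it was -4.27 (adjusted p = 5.8e-05), between -5.76 and -3.79 without the same libraries. The further step from nutlin to the combination, -1.64 ± 0.641, was not called (adjusted p = 0.092), but was called with no filter (adjusted p = 0.030) and in the fit of all 16 libraries (adjusted p = 0.039).

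*PTGER4*, which encodes the EP4 receptor, held 2.14 and 2.20 CPM under DMSO, 1.25 and 1.65 under nutlin, 2.24 and 2.08 under GSK2830371, and 0.927 and 0.814 under the combination. The combination libraries lay under all others, and the DMSO and GSK2830371 libraries overlapped. Its log2 fold change was -1.36 ± 0.213 under the combination (adjusted p = 4.1e-04) and -0.58 under nutlin (adjusted p = 0.033), the latter just short of 1.5-fold and so not called. Without TPC1 nutlin replicate 3 the nutlin value was -0.82 and was called.

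*PLA2G4A* held 2.40 and 2.67 CPM under DMSO, 1.82 and 2.55 under nutlin, 3.31 and 2.92 under GSK2830371, and 1.35 and 1.05 under the combination. The DMSO and nutlin libraries overlapped and the combination libraries lay under all others. The log2 fold change under the combination was -1.14 ± 0.223 (adjusted p = 0.0017). *PTGS1* was at 5.78 and 4.95 CPM under the combination (-1.29, adjusted p = 2.5e-05) and *PTGES3* at 222 and 263 CPM (-1.27), close to their levels under nutlin alone.

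Against nutlin alone, the combination lowered 2 of the 7 members in TPC1 and raised none, where 5.66% of all genes were called as lower and 12.1% in either direction. The 2 were *PLA2G4A* at -0.91 ± 0.228 (adjusted p = 0.018) and *PTGER4* at -0.77 ± 0.223 (adjusted p = 0.032). Neither call held without every library. *PLA2G4A* was at -0.62 (adjusted p = 0.19) without TPC1 nutlin replicate 3 and at -0.72 (adjusted p = 0.12) without combination replicate 3. *PTGER4* was at -0.53 (adjusted p = 0.28) and -0.66 (adjusted p = 0.15) without the same libraries, at 0.052 without combination replicate 1, and at 0.053 and 0.055, again as adjusted p, without GSK2830371 replicate 1 or 3.

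Against GSK2830371 alone, the combination lowered 5 of the 7 in TPC1, with 19.0% of all genes called as lower and 38.5% in either direction. These were *PTGER2* (above), *PLA2G4A* at -1.42 (adjusted p = 4.7e-04), *PTGER4* at -1.34 (adjusted p = 5.3e-04), *PTGES3* at -1.11 (adjusted p = 2.2e-05) and *PTGS1* at -0.79 (adjusted p = 7.3e-04).

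For the interaction in TPC1, which was used to choose the genes, 6.32% of all genes were called. The members' values were -2.52 for *PTGES*, -1.42 ± 0.713 for *PTGER2*, -1.19 ± 0.304 for *PLA2G4A*, -0.76 ± 0.293 for *PTGER4* and 0.76 ± 0.189 for *PTGS1*, all on the log2 scale. Those of *PTGS2*, *PTGES2* and *PTGES3* were above 0. No test was made of them.

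The remaining members of TPC1 were steady or scarce. *PTGES2* stayed between 121 and 146 CPM in all 8 libraries. *PTGS2* had 6 to 34 counts per library, 0.202 to 0.786 CPM, with the treatments overlapping. *HPGD* had 0 to 6 counts per library in both lines, below the filter, which asked for over 0.1 CPM in 2 libraries of the line, so it was not tested anywhere. Fewer cells that express a gene and less RNA per cell cannot be told apart in bulk libraries.

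**Figure D3:**
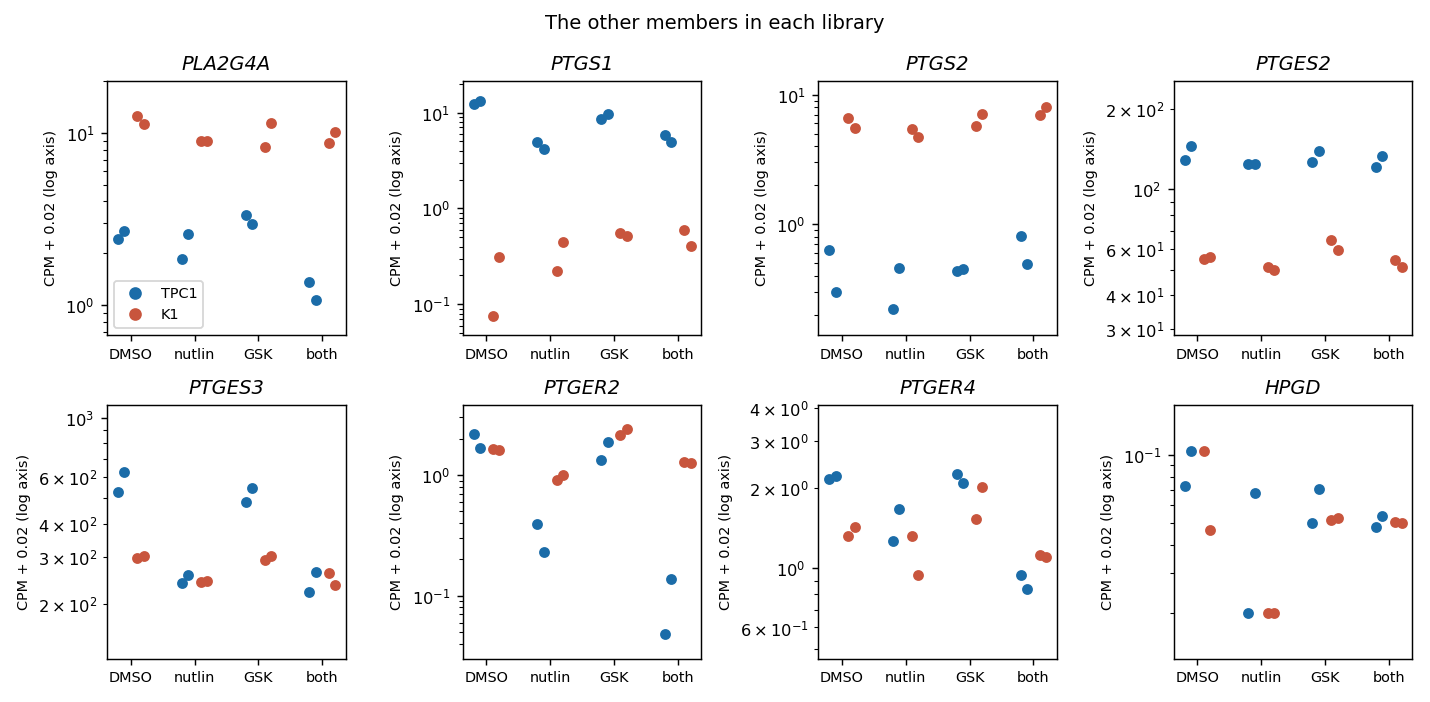
The 8 members other than *PTGES* in each library, as CPM + 0.02 on log axes that differ between panels; blue dots are TPC1 and red dots K1, with the 2 libraries of each treatment side by side. *PTGER2* falls to 0.0281 and 0.119 CPM in the TPC1 combination libraries and stays at 1.26 and 1.23 in those of K1.

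In K1 nutlin and the combination moved fewer genes past the threshold than in TPC1, over all genes and among the members. Against DMSO 9.27% and 15.7% of all genes were called in K1, where TPC1 had 35.5% and 44.2%. The member counts below are not read as particular to these genes. Nutlin lowered 1 of the 8 tested, *PTGER2*, and raised none, with 5.43% of the 15900 genes called as lower and 9.27% in either direction. *PTGER2* held 1.61 and 1.6 CPM under DMSO, 0.890 and 0.983 under nutlin, 2.11 and 2.37 under GSK2830371, and 1.26 and 1.23 under the combination, from 26 to 72 counts. The 4 pairs did not overlap. The log2 fold change under nutlin was -0.77 ± 0.218 (adjusted p = 0.016). It was between -0.70 and -0.84 in every fit with a library left out, but the adjusted p was 0.063 and 0.064 without K1 DMSO replicate 1 or 2, and 0.080 and 0.053 without nutlin replicate 1 or 2.

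*PTGES3* in K1 held 297 and 302 CPM under DMSO and 241 and 244 under nutlin. The groups did not overlap and the log2 fold change, -0.30 ± 0.0567, passed the test (adjusted p = 0.0011) but not the fold threshold. *PLA2G4A* held 12.5 and 11.3 CPM under DMSO and 8.94 and 9.0 under nutlin, at -0.40 ± 0.136 (adjusted p = 0.038), also under 1.5-fold.

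Under the combination 1 of the 8 members in K1 passed the threshold, *PTGES* itself, whose DMSO libraries entered the choice of the gene, so nothing is read from that count; 7.62% of all genes were called as higher and 15.7% in either direction. *PTGS1*, which had 2 to 19 counts in the K1 libraries, stood at 1.43 ± 0.578 and was not called (adjusted p = 0.062). Without K1 DMSO replicate 2 it was 3.02 and was called (adjusted p = 0.012).

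Against nutlin, the combination left 0 of the 8 called in K1 by edgeR's quasi-likelihood test and 0 by DESeq2, where 2.68% of all genes were called. At an unadjusted p under 0.05 there was 1, *PTGS2*, the inducible cyclooxygenase. It held 5.41 and 4.70 CPM under nutlin and 6.96 and 7.95 under the combination, with 6.57 and 5.52 under DMSO and 5.70 and 7.02 under GSK2830371. The combination libraries lay above the nutlin and DMSO libraries and overlapped those of GSK2830371. The log2 difference from nutlin was 0.56 ± 0.145 (adjusted p = 0.023), 1.48-fold and so just short of a call.

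Against GSK2830371, the combination lowered 2 of the 7 members tested in K1, with 6.75% of all genes called as lower and 13.1% in either direction. *PTGER2* was at -0.85 ± 0.197 (adjusted p = 0.0036). *PTGER4*, with 1.51 and 2.01 CPM under GSK2830371 and 1.08 and 1.1 under the combination, was at -0.69 ± 0.243 (adjusted p = 0.038), and lost its call without GSK2830371 replicate 2 (-0.47, adjusted p = 0.25) or either combination library (adjusted p = 0.11 and 0.14). For the interaction in K1, 0 of 7 members passed by edgeR's quasi-likelihood test and 0 by DESeq2, with 1 (*PTGS2*) at an unadjusted p under 0.05 and 2.44% of all genes called. Without GSK2830371 replicate 2, *PLA2G4A* was called there at 0.59 (adjusted p = 0.038).

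Under GSK2830371 alone in K1, a contrast used to choose the genes, *PTGS1* stood at 1.51 ± 0.578, with 0.535 and 0.494 CPM against 0.0564 and 0.293 under DMSO, and the value was 0.80 without K1 DMSO replicate 1 and 3.10 without replicate 2. In the same contrast *PTGER2* stood at 0.48 ± 0.185. The other members lay closer to 0 than these, apart from *PTGES*. *PTGES2* ranged from 49.6 to 64.7 CPM over the K1 libraries.

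**Figure D4:**
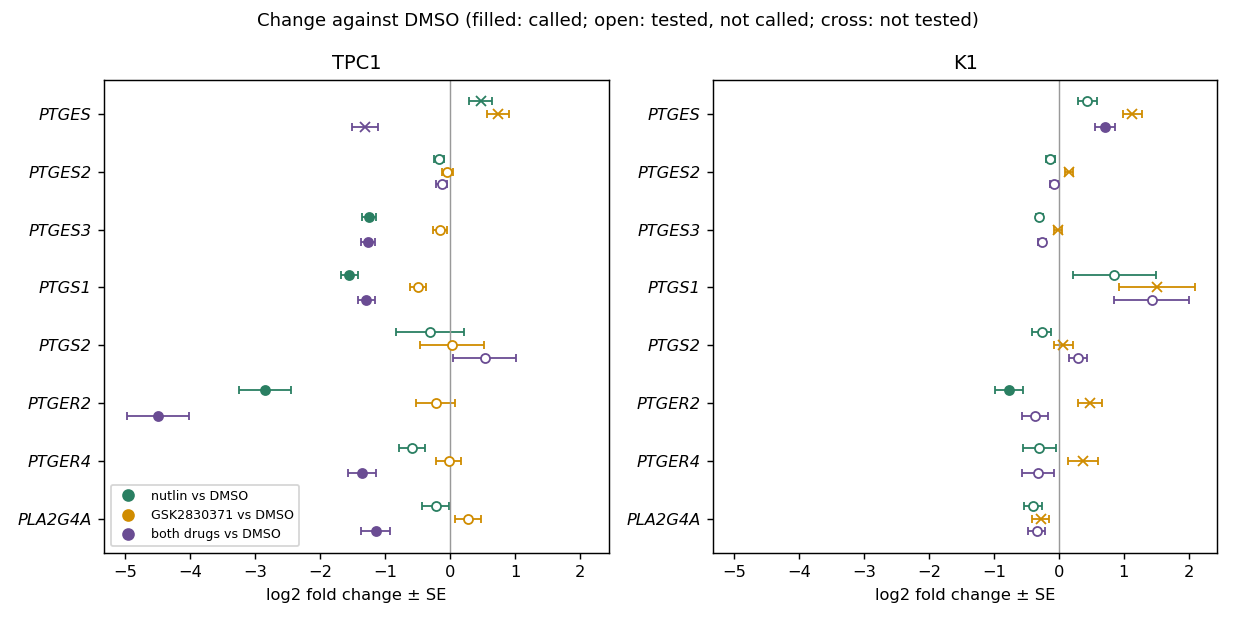
Log2 fold change against DMSO (horizontal axis, bars are SE) of 8 members under nutlin, GSK2830371 and the combination, in TPC1 (left) and K1 (right). Filled dots were called, open dots were tested and not called, and crosses were not tested because the choice of the genes used them. The K1 *PTGES* values share the DMSO libraries with that choice and are descriptions, whichever symbol they carry. *PTGER2* in TPC1 lies at -2.85 under nutlin and -4.49 under the combination.

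Whether the lines responded differently was tested in a fit of all 16 libraries. The nutlin response differed for 3 of the 7 members tested, with 8.73% of the 16738 genes called as higher in K1 and 19.2% in either direction. The response of *PTGER2* was higher in K1 by 2.04 ± 0.448 on the log2 scale (adjusted p = 0.0023) and that of *PTGES3* by 0.91 ± 0.139 (adjusted p = 1.1e-04). That of *PTGS1* was higher by 2.37 ± 0.605 (adjusted p = 0.0066), which was 1.72 (adjusted p = 0.17) without K1 nutlin replicate 2 and 3.98 without K1 DMSO replicate 2. In each case the fold change in TPC1 was below 0 and called, and that in K1 was closer to 0 or above it.

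The response to GSK2830371 on top of nutlin differed for 1 of the 7, *PLA2G4A*, by 1.02 ± 0.277 (adjusted p = 0.031), with 2.56% of all genes called as higher in K1 and 5.11% in either direction. The call was lost without TPC1 nutlin replicate 3 (0.70, adjusted p = 0.27), TPC1 combination replicate 3 (0.81), K1 nutlin replicate 1 (1.01) or 2 (1.02), or K1 combination replicate 2 (0.89). *PTGER2* stood at 2.03 ± 0.639 and was not called (adjusted p = 0.061), but was called without TPC1 combination replicate 3 at 3.50 (adjusted p = 0.048).

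Other genes of the eicosanoid pathway were read from lists of known function. Among 8 other genes of arachidonate release, 4 were tested in TPC1. Nutlin raised 2 of them and lowered none, as did the combination, where 17.5% and 22.5% of all genes in TPC1 were called as higher. *PLA2G6*, a calcium-independent phospholipase A2, held 3.62 and 3.0 CPM in the TPC1 DMSO libraries, 14 and 12.6 under nutlin, 3.25 and 3.58 under GSK2830371, and 14.1 and 14.3 under the combination. The nutlin and combination libraries lay above all others, and the log2 fold changes were 1.99 ± 0.131 (adjusted p = 1.9e-06) and 2.09 ± 0.130 (adjusted p = 9.5e-07). *PLA2G4C*, a relative of *PLA2G4A*, rose by 2.59 ± 0.339 under the combination (adjusted p = 1.3e-04) from 9 and 22 counts under DMSO. So under the combination these phospholipase genes rose in TPC1 while *PLA2G4A* fell. With nutlin alone *PLA2G4A* was not called (-0.22, adjusted p = 0.39). In K1 none of 5 was called under nutlin or the combination, beside 9.27% and 15.7% of all genes called in either direction. With 5 genes tested, nothing is read from that count.

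Of the 8 other prostanoid synthases 7 were tested in TPC1. Nutlin lowered 3 and raised none and the combination lowered 5, beside 18.0% and 21.7% of all genes called as lower. *PTGDS* was called as higher under the combination. It would not have passed the filter without the libraries with nutlin, where it was higher, so its call is not counted. *PTGIS*, the prostacyclin synthase, was abundant in TPC1 and near absent in K1. It held 31.5 and 28.4 CPM in the TPC1 DMSO libraries, 14.9 and 13.7 under nutlin, 29.7 and 29.2 under GSK2830371, and 8.90 and 6.51 under the combination, against 0.245 to 0.567 CPM in all K1 libraries. In TPC1 its log2 fold change was -1.1 ± 0.138 under nutlin (adjusted p = 1.2e-04) and -2.0 ± 0.144 under the combination (adjusted p = 2.5e-06), and the combination lay below nutlin by -0.90 ± 0.146 (adjusted p = 0.0026). *FAM213B*, which codes for a prostaglandin F synthase, was at -1.31 ± 0.106 and -1.61 ± 0.108 in the same contrasts with DMSO, *TBXAS1* (thromboxane synthase) at -1.73 ± 0.343 and -1.32 ± 0.323, and *CBR1* (a prostaglandin reductase) at -0.96 ± 0.0892 under the combination. *AKR1C3*, a prostaglandin F synthase with near-identical relatives, moved in opposite directions under the combination: it fell in TPC1 (-0.81 ± 0.149, adjusted p = 0.0012) and rose in K1 (0.61 ± 0.101, adjusted p = 2.6e-04).

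Of the 7 other prostanoid receptors 4 were tested in TPC1, and *PTGIR* and *PTGER1*, both under 1 CPM, were higher under the combination. Of all genes in TPC1, 22.5% were called as higher under the combination and 21.7% as lower. *PTGER1* passed the filter only through the combination libraries (4 and 7 counts), so its call is not counted. *PTGFR*, the prostaglandin F receptor, held 5.84 and 5.47 CPM in the K1 DMSO libraries and 2 counts in each of those of TPC1. *PTGIR*, the prostacyclin receptor, rose under the combination in K1, from 1.35 and 1.57 CPM to 2.94 and 2.60 (0.92 ± 0.206, adjusted p = 0.0026). Among the 4 genes of transport and breakdown tested, *ABCC4*, which exports prostaglandins, fell under the combination in TPC1 by 0.89 ± 0.10 on the log2 scale (adjusted p = 4.8e-05), and *PTGR2*, a prostaglandin reductase, rose by 0.83 ± 0.123 (adjusted p = 2.9e-04). None of these was called under nutlin in either line, beside 35.5% of all genes in TPC1 and 9.27% in K1. With so few genes tested, nothing is read from the counts in these lists.

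The lipoxygenase arm, which makes leukotrienes from the same arachidonic acid, held genes that rose in TPC1. Of 13 genes listed 7 were tested, but *ALOX5* and *ALOX12B* passed the filter only through the libraries with nutlin, where they were higher, so the number called is not given as a result. *ALOX5*, the 5-lipoxygenase, had no count in the TPC1 DMSO libraries, 34 and 54 counts under nutlin, 0 and 1 under GSK2830371, and 78 and 164 under the combination. Set against 3 counts over the DMSO group, it was at least 36.8-fold higher under nutlin and at least 90.8-fold higher under the combination, at mean levels of 1.01 and 2.49 CPM. In K1 it had at most 2 counts in a library. Of the membrane enzyme family to which *PTGES* belongs (MAPEG), 4 other genes were tested in TPC1. Nutlin raised 1 and the combination 2, *MGST2* and *ALOX5AP*, and none was lowered. Of all genes, 17.5% and 22.5% were called as higher and 35.5% and 44.2% in either direction. With 4 genes tested, nothing is read from these counts. *MGST2* rose in TPC1 from 13.1 and 18.5 CPM under DMSO to 41.2 and 43.8 with nutlin (1.38 ± 0.15, adjusted p = 5.0e-05) and 45.6 and 53.6 under the combination (1.62 ± 0.15, adjusted p = 1.3e-05). In K1 it rose by 0.60 ± 0.0955 under the combination (adjusted p = 1.8e-04). *LTA4H*, which makes leukotriene B4, was at 0.68 and 0.80 in TPC1. *ALOXE3*, an epidermal lipoxygenase, held 1.24 and 1.18 CPM under DMSO, 4.72 and 4.26 with nutlin, and 10.9 and 4.07 with both drugs, so its combination libraries differed more from each other than from those of nutlin (1.86 ± 0.427 and 2.58 ± 0.418). *ALOX5AP*, the partner protein of 5-lipoxygenase, was at 0.86 ± 0.230 under the combination in TPC1 and at -0.75 ± 0.225 in K1.

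Of the 10 genes that cyclic AMP is known to induce, 4 were higher and 1 lower under nutlin in TPC1, and 7 higher and 1 lower under the combination, beside 35.5% and 44.2% of all genes called in either direction. *PTGER2* and *PTGER4* were lower under the combination. *NR4A3*, an orphan nuclear receptor, went from 0.475 and 0.280 CPM to 2.83 and 3.04 with nutlin (3.02 ± 0.232) and 9.83 and 10.6 with both drugs (4.82 ± 0.216, adjusted p = 1.2e-07). *SIK1* stood at 1.67 and 2.02 and *DUSP1* at 1.01 and 1.98 in the same contrasts, and *FOS* was lower at -1.62 ± 0.353 and -2.56 ± 0.391. In K1 1 of the 10 was called under nutlin and 3 under the combination, all higher, beside 3.84% and 7.62% of all genes called as higher, with *NR4A3* at 1.26 ± 0.210 and 1.90 ± 0.194.

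**Figure D5:**
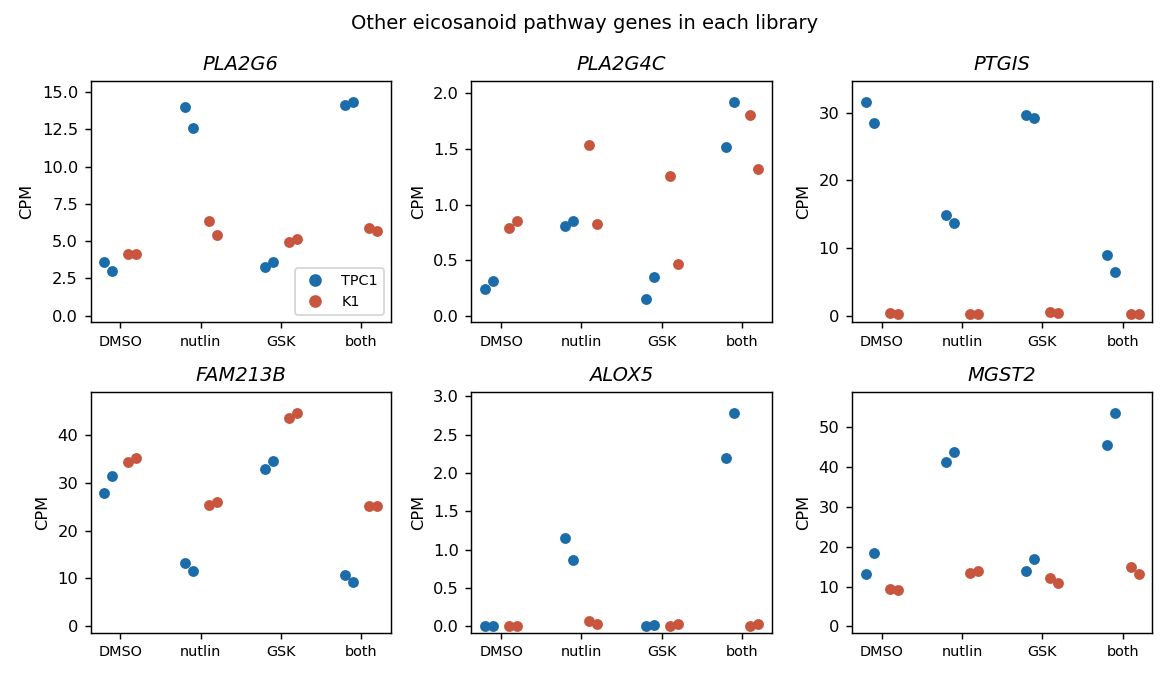
Other genes of the eicosanoid pathway in CPM (vertical axes from 0, scales differ) for the 2 libraries of each treatment, blue for TPC1 and red for K1. *PLA2G6*, *ALOX5* and *MGST2* are higher in the TPC1 libraries with nutlin, up to 14.3, 2.78 and 53.6 CPM, and *PTGIS* and *FAM213B* are lower there, down to 6.51 and 9.21.

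The genes whose pattern over the 8 libraries of a line was most like that of *PTGES* differed between the lines. In TPC1 they were *GATA6* (Pearson r = 0.975), *FAM114A1* (0.973), *LAMB3* (0.972), *MAP4K2* (0.971) and *GDPGP1* (0.964), out of 10492 genes that averaged 5 CPM or more. In K1 they were *SEMA4D* (0.977), *SBNO2* (0.975), *SCAP* (0.975), *HTATIP2* (0.972) and *ZCCHC24* (0.969), out of 10551. *GATA6* shared the shape but not the size of the change in TPC1, with 16.5 and 15.7 CPM under DMSO and 12.6 and 12.8 under the combination. Among the 5 members of TPC1 and 6 of K1 that averaged 1 CPM or more, *PLA2G4A* had the highest r in TPC1 (0.838, Spearman's rho 0.857). In K1 *PTGER2* had the highest r (0.448) and *PTGS2* the highest rho (0.429). These are descriptions over 8 libraries in 4 treatments, which share the treatment effects.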

How the data were processed

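Counts were analysed as deposited. TopHat2 2.0.13 (alignment to GRCh37) and HTSeq 0.6.1 (stranded counting per gene, after poorly mapped reads were removed) were the tools of the authors, and each value is a raw count of one library. All 16 columns were used. Names of K1 columns gave the sample. Of the TPC1 columns, 4 are numbered 3, a number the labels do not hold, and were assigned to their treatment only.

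Each line was fitted with its 4 treatments together (edgeR 4.0.16, limma 3.58.1, R 4.3.3): genes above 0.1 CPM in at least 2 libraries, TMM scaling, quasi-likelihood test, Benjamini-Hochberg adjustment over all genes tested. SE is the absolute log2 fold change divided by the square root of F. Differences between lines were fitted over all 16 libraries. CPM levels use TMM factors over all 16, and likeness to *PTGES* was computed on log2(CPM + 0.5). The scripts were tested on simulated data. DESeq2 1.42.0, other scalings and filters, a GC and length correction, a replicate block and left-out libraries served as alternatives.

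The members and lists were chosen with earlier results of these data known. From each list up to 5 genes were named by size of change, among called genes that averaged 1 CPM or more where they were higher. The study describes its replicates in general as biological and independently prepared. The labels do not say so of these libraries. The p-values rest on the spread between the 2 libraries of a group. That spread was estimated together over all groups of a fit, with information shared between genes. Transcript lengths come from GENCODE on GRCh37. Protein sequences were not used here.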

Additional observations from a re-analysis of the deposited data

Results flagged for a closer look

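The log2 fold change of 3 members under nutlin differed between K1 and TPC1 by a test of the difference itself, in a fit of all 16 libraries. It was higher in K1 by 2.04 for *PTGER2*, 2.37 for *PTGS1* and 0.91 for *PTGES3*. The change from nutlin to the combination differed for *PLA2G4A*, by 1.02. The value of *PTGS1* rests on 2 to 19 counts per K1 library and its call was lost without K1 nutlin replicate 2. The lines were also grown in different media. With 2 libraries per group, no single library could be tested as standing apart.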

How the results depend on the processing

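Of 94 member results tested, 29 were called. Under the alternatives 21 of these kept the call throughout, 8 lost it under at least one, and 0 changed sign. Of the 65 not called, 7 were called under at least one alternative. The 94 include *PTGES* in K1 under nutlin and under the combination, each against DMSO. Both values share the DMSO libraries with the choice of the gene and are descriptions. The combination value of *PTGES* is among the 29 and among the 8, and nothing is read from it. The number of members called changed as follows. For nutlin in TPC1 it was 3, and 4 with library size only. For the combination against nutlin in TPC1 it was 2, 1 with DESeq2 or a fit of the compared groups only, and 3 with no filter or in the fit of all 16 libraries. For nutlin in K1 it was 1, and 0 with DESeq2 or the fit of all 16 libraries. For the combination in K1 it was 1 (*PTGES*, a description), and 2 without a filter or in the fit of all 16 libraries. For the combination against nutlin in K1 it was 0, and 1 with library size only. For the combination against GSK2830371 in K1 it was 2, and 1 with library size only, DESeq2 or the GC and length correction. For the difference between the lines on adding GSK2830371 to nutlin it was 1, and 2 with no filter or DESeq2. With single libraries left out, the counts ran from 3 to 4, 0 to 2, 0 to 1, 0 to 2, 0 to 0, 1 to 2 and 0 to 1 in that order, from 0 to 1 for the interaction in K1 (0 with all), from 5 to 6 between the DMSO groups (6 with all) and from 2 to 3 for the nutlin response between the lines (3 with all). The cause of these changes was not tested.

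The replicate block changed 0 member calls; with it the log2 fold change of *PTGES* under GSK2830371 in K1 was 1.12 and its interaction in TPC1 was -2.50. Differences between the numbered libraries correlated between treatments at 0.494 to 0.698 in TPC1, where all 6 pairs of treatments were positive, and at -0.359 to 0.379 in K1. No label says what a number shares, there are only 2 numbers, and in TPC1 they also differ in depth, so the fit without the block was kept in both lines; in TPC1 the positive correlations show that the numbered libraries deviated together. Counts over all genes moved further. For GSK2830371 in TPC1, 214 genes were called, 377 without a filter, 480 with the block, 326 with the GC and length correction, 106 in the compared groups, 369 in all 16 libraries and 22 to 118 with a library left out. The TPC1 interaction gave 965, 1573 with the block and as few as 345 with a library left out. For GSK2830371 in K1 the count was 355, 130 with the GC and length correction, and 177 or 638 without GSK2830371 replicate 1 or 2. The combination against nutlin in K1 gave 426, and 227 or 277 without nutlin replicate 2 or combination replicate 1. The K1 interaction gave 388, 83 with the GC and length correction, 173 in all 16 libraries and 20 to 692 with a library left out. The share called as higher changed by over 10 points with library size only for GSK2830371 in TPC1 (51.4% to 66.1%), the TPC1 interaction (44.7% to 32.4%), the combination against nutlin in K1 (43.2% to 53.8%), the K1 interaction (73.2% to 84.0%) and the difference between lines on adding GSK2830371 (428 of 856 to 61.0%), and with the GC and length correction for GSK2830371 in K1 (33.0% to 65 of 130) and the K1 interaction (73.2% to 48.2%). Depth limits *HPGD* (0 to 6 counts per library, not tested), *PTGS1* in K1 (2 to 19), *PTGS2* in TPC1 (6 to 34) and *PTGER2* in TPC1 with nutlin (1 to 13), whose values carry wide errors.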
